A study of Sus scrofa with 6 samples.

Results

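CD4, CD8A and CD8B encode the coreceptors of T cells. They were followed as 3 of the 4122 genes listed for lymph node, spleen and thymus of pigs, each found by its symbol in every count table and every FPKM table. The study compared pigs with a biallelic RAG2 knockout with their wild-type littermates, all 3 months of age. Each tissue and genotype is represented by 1 library, 6 in all: wild-type lymph node, knockout lymph node, wild-type spleen, knockout spleen, wild-type thymus and knockout thymus. The series title describes SCID pigs that lack a single amino acid and survive for longer, and the labels name the genotype only as a RAG2 knockout. Whether the tissues of a genotype came from 1 animal, and whether animals were pooled, is not given in the sources used here.

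CD4 is a single-chain receptor that binds MHC class II on the cell facing the T cell. CD8 is a dimer that binds MHC class I, made either of 2 CD8 alpha chains (CD8A) or of 1 alpha and 1 beta chain (CD8B). The tails of CD4 and CD8 alpha carry the kinase LCK to the T-cell receptor, and the beta chain reaches the cell surface only with an alpha partner. Thymocytes gain CD4 and CD8 after they have rearranged and tested their receptor beta chain, a step that needs the RAG recombinase, and keep 1 of them when they mature. In pigs the alpha chain is also carried by natural killer cells and by activated helper T cells, and CD4 also marks plasmacytoid dendritic cells.

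In Sscrofa11.1, the build named in the submitters' processing notes, RefSeq places CD8B (ENSSSCG00000008213) on chromosome 3 from 57968358 to 57986450. CD8A (ENSSSCG00000008217) follows on the same chromosome from 57999228 to 58029768, with 12777 bases between them. CD4 (ENSSSCG00000000687) lies on chromosome 5 from 63892129 to 63918547, where its nearest annotated neighbour is GPR162 at a distance of 692 bases. No annotated gene overlaps any of the 3.

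Values are FPKM. These are fragment numbers divided by transcript length and by library size, so they can be compared between genes. The fragments behind them were recovered from the count tables, and 1922562 to 2541724 fragments per library were assigned to listed genes. RAG2, the targeted gene, had 0 and 5 fragments in wild-type and knockout lymph node, 4 and 0 in spleen, and 606 and 1072 FPKM in thymus. A small deletion need not lower a transcript, so these levels give no check of the genotype labels. The tissue labels were checked on markers. CCL25, the chemokine of thymic epithelium, was at 1423 and 414 FPKM in wild-type and knockout thymus and had at most 1 fragment in each library of the other tissues. CCL21, the chemokine of lymph node stroma, was at 2438 and 1754 FPKM in lymph node, 336 and 126 FPKM in spleen and 5.08 and 11.2 FPKM in thymus. CCL19, another chemokine of that stroma, did not set the lymph node apart: it was at 2163 and 2589 FPKM there, 109 and 2097 FPKM in spleen, and 283 and 39.1 FPKM in thymus. HBB, a haemoglobin gene abundant in blood-filled spleen, was at 41406 and 18970 FPKM in spleen and between 376 and 6738 FPKM in the libraries of the other tissues. In bulk tissue, fewer cells of a type and less RNA per cell cannot be told apart.

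CD4 was measured at 412 FPKM in wild-type thymus (3202 fragments), 65.2 FPKM in wild-type lymph node (482) and 19.4 FPKM in wild-type spleen (147). In the knockout libraries it was at 19.5 FPKM in thymus (155), 67.1 FPKM in lymph node (520) and 7.98 FPKM in spleen (71). The wild-type thymus was thus the highest of the 6 libraries, and the knockout lymph node came next, level with its wild-type counterpart. The knockout thymus and the wild-type spleen also stood side by side, with a ratio of 1.01 (counting interval 0.798 to 1.27).

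CD8A, the alpha chain, was at 534 FPKM in wild-type thymus (3256 fragments), 79.4 FPKM in wild-type lymph node (461) and 17.6 FPKM in wild-type spleen (105). In the knockout libraries it was at 11.4 FPKM in thymus (71), 5.75 FPKM in lymph node (35) and 6.43 FPKM in spleen (45). All 3 wild-type libraries were above all 3 knockout libraries, which was so for neither CD4 nor CD8B. The lowest pair, knockout spleen and knockout lymph node, differed by a ratio of 1.12, with an interval from 0.704 to 1.79 that includes equal levels.

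CD8B, the beta chain, was at 1118 FPKM in wild-type thymus (4678 fragments), 61.2 FPKM in wild-type lymph node (244) and 4.89 FPKM in wild-type spleen (20). In the knockout libraries it was at 41.3 FPKM in thymus (177), 2.63 FPKM in lymph node (11) and 5.82 FPKM in spleen (28). It had the widest spread of the 3 genes across wild-type tissues: its level in thymus was 229 times that in spleen, against 30.3 times for CD8A and 21.3 times for CD4. The 3 lowest libraries, both spleens and the knockout lymph node, could not be ordered at this depth, since the intervals of neighbouring ratios (0.647 to 2.23 and 0.850 to 4.30) include 1. FPKM came in a separate table for each tissue, so an order across tissues is a description.

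**Figure D1:**
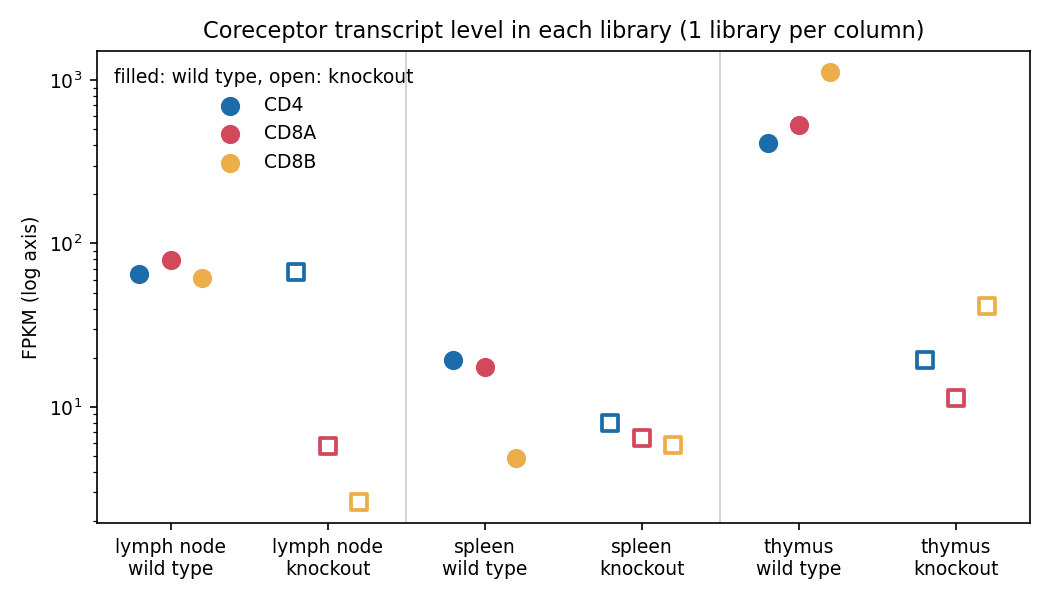
FPKM of CD4, CD8A and CD8B on a log axis, with 1 library per column, wild type filled and knockout open. Wild-type thymus holds the 3 highest points (412 to 1118 FPKM), and in the knockout lymph node CD4 (67.1 FPKM) stands apart from CD8A (5.75 FPKM) and CD8B (2.63 FPKM).

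The thymus comparison asks whether coreceptor transcripts are present where receptor rearrangement is impaired. CD8A was 47.0-fold lower in the knockout library (95% Clopper-Pearson interval 37.1 to 60.3). CD8B was lower by 27.1-fold (23.3 to 31.6), and CD4 by 21.2-fold (18.0 to 25.0). The interval of CD8A does not overlap the other 2. Intervals cover counting error only, and with 1 library per group no difference has a replicate check and no p-value is given. A gene was called higher or lower when its log2 ratio (knockout divided by wild type, 1 FPKM added to each) was at least 1 in size. All 3 members were called lower in thymus (log2 ratios -5.43, -4.73 and -4.33), as were 10.9% of the 2908 measured genes, those with at least 1 FPKM in 1 of the compared libraries. Of the measured genes 6 had a lower log2 ratio than CD8A, 12 than CD8B and 15 than CD4. Together the 3 genes came to 2064 FPKM in the library of the wild-type thymus and to 72.2 FPKM in its knockout counterpart. CD8B made up 54.2% and 57.2% of these sums, CD4 20.0% and 27.0%, and CD8A 25.9% and 15.7%.

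In lymph node, a peripheral organ where mature T cells gather, the coreceptors went apart. CD8B was 23.2-fold lower in the knockout library (12.7 to 47.1) and CD8A 13.8-fold lower (9.76 to 20.0). The level of CD4 in the knockout was 1.03 times that in wild type (0.910 to 1.17), with a log2 ratio of 0.04. Lower calls were thus made for 2 of the 3 members (log2 ratios -4.10 and -3.57), beside 10.3% of 2910 measured genes, and only 16 genes had a lower log2 ratio than CD8B. The share of CD4 in the summed FPKM of the 3 genes was 31.7% in wild type and 88.9% in the knockout.

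In spleen wild-type levels were the lowest of the 3 tissues, and the CD8 chains differed less between genotypes than in lymph node or thymus. CD8A was 2.72-fold lower in the knockout library (1.90 to 3.95) and CD4 2.42-fold lower (1.81 to 3.26). The level of CD8B in the knockout was 1.199 times that in wild type, on 28 and 20 fragments. Its interval, from 0.652 to 2.24, includes equal levels, so no difference was detectable at this depth. Lower calls were made for CD8A (log2 ratio -1.32) and CD4 (-1.18), beside 10% of 2849 measured genes. Both calls were close to the threshold and were lost with a pseudocount of 5 FPKM, at -0.98 and -0.91.

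**Figure D2:**
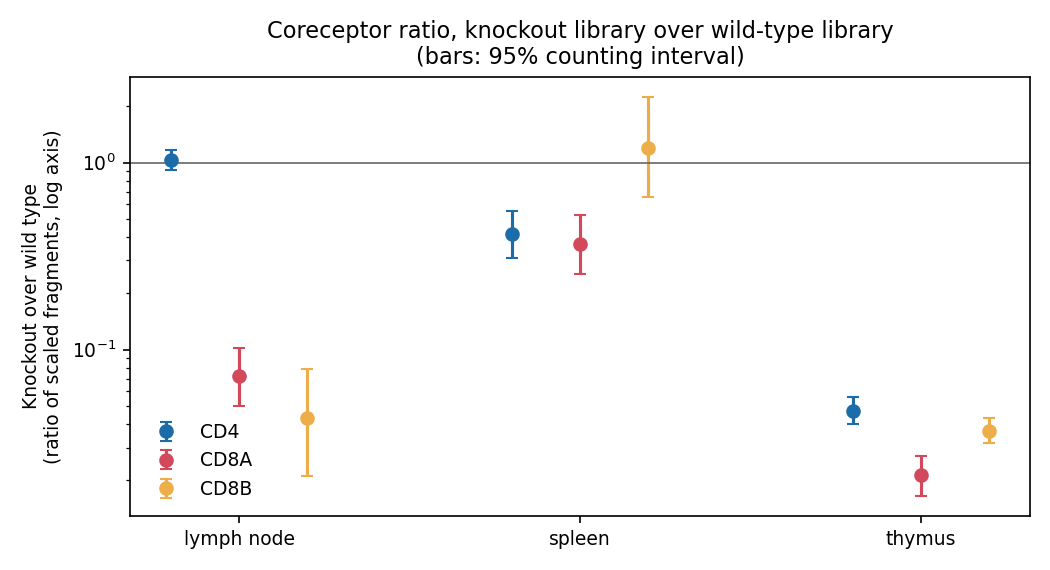
Ratio of scaled fragments in the knockout over the wild-type library for each coreceptor and tissue on a log axis; bars are 95% counting intervals from 1 library per group. CD4 in lymph node (1.03) and CD8B in spleen (1.199) lie at the line of equal levels, and the other 7 points and their bars lie under it.

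**Figure D3:**
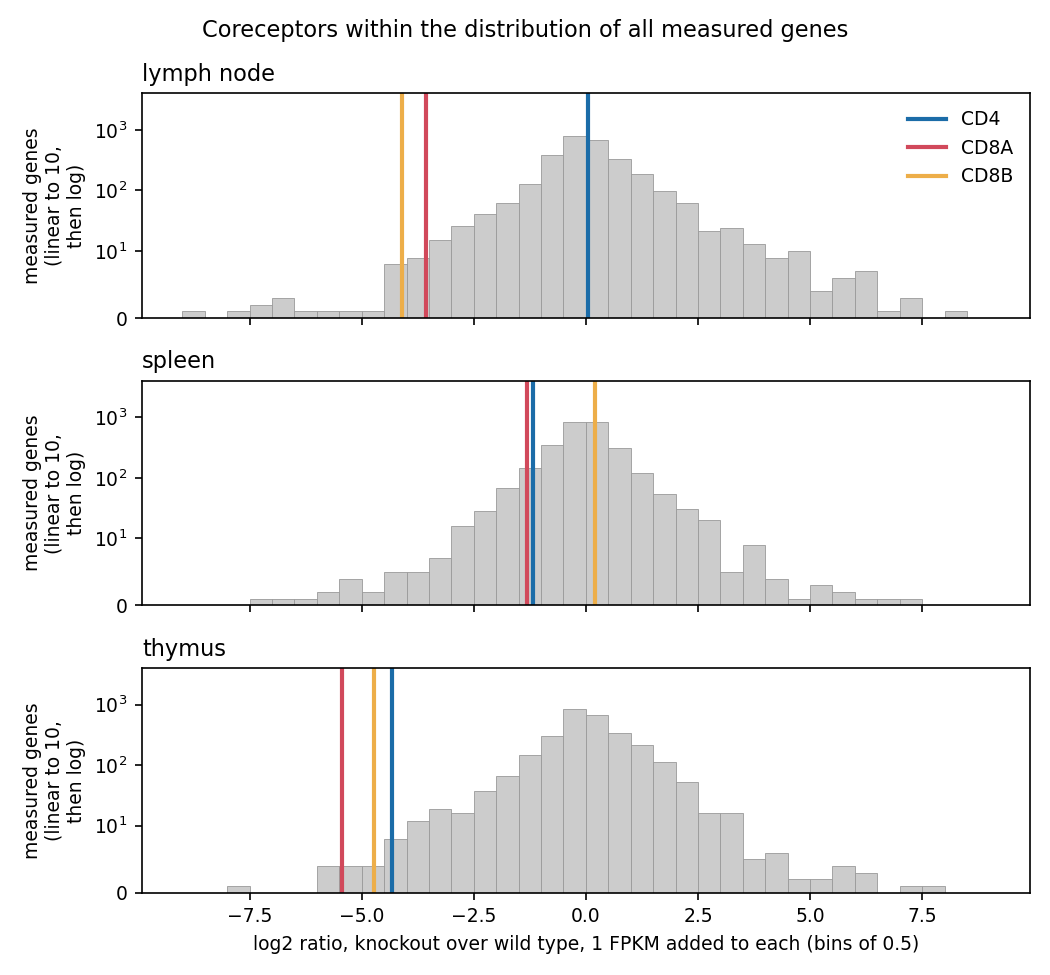
Number of measured genes in each bin of the log2 ratio (knockout divided by wild type), by tissue, with vertical lines for the coreceptors. In thymus all 3 lines lie in the lower tail (-4.33 to -5.43), in lymph node CD4 lies at 0.04 and the CD8 chains in the lower tail, and in spleen CD8B lies at 0.21.

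The ratio of CD8A to CD8B within a library does not depend on scaling between libraries and describes the balance of alpha and beta chain transcripts. In wild type it was 0.477 in thymus (0.456 to 0.499), 1.30 in lymph node (1.11 to 1.52) and 3.60 in spleen (2.22 to 6.14). The beta chain thus outweighed the alpha chain in thymus, while the alpha chain outweighed the beta chain in both peripheral organs, and none of these intervals overlap. In the knockout it was 0.275 in thymus (0.206 to 0.364), 2.19 in lymph node (1.09 to 4.77) and 1.11 in spleen (0.675 to 1.84).

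Between genotypes, the CD8A to CD8B ratio of the knockout thymus was 0.576 times that of the wild type (exact conditional interval 0.430 to 0.766). In spleen the corresponding factor was 0.308 (0.148 to 0.632). The balance was thus further from the alpha chain in the knockout library of both organs, which compares these libraries and not the conditions. In lymph node the factor was 1.68, and its interval (0.818 to 3.74) includes no difference. The wild-type thymus and the knockout thymus both had more CD8B than CD8A per length, so this order did not turn with the genotype.

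The ratio of CD4 to CD8B was 0.369 in wild-type thymus (0.353 to 0.386), 1.07 in wild-type lymph node (0.912 to 1.25) and 3.96 in wild-type spleen (2.47 to 6.68). In the knockout it was 0.472 in thymus (0.378 to 0.589), 25.6 in lymph node (14.2 to 51.5) and 1.37 in spleen (0.874 to 2.21). The knockout lymph node is the library furthest from the others. Its ratio was 23.9 times that of the wild-type lymph node (12.9 to 49.1), while in thymus the factor was 1.28 (1.02 to 1.60) and in spleen 0.346 (0.172 to 0.686).

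The ratio of CD4 to CD8A was 0.773 (0.736 to 0.812) in wild-type and 1.72 (1.29 to 2.30) in knockout thymus. It was 0.822 (0.722 to 0.936) and 11.7 (8.29 to 17.0) in lymph node, and 1.10 (0.851 to 1.43) and 1.24 (0.842 to 1.85) in spleen. CD4 thus exceeded CD8A in the knockout lymph node and thymus, while it was under CD8A in the wild-type libraries of both organs. In wild-type lymph node this order depends on the division by length, since the ratio of fragments was 1.05. In wild-type thymus the ratio of fragments was 0.983, so the order stayed but was close to equal. The factor between genotypes was 14.2 in lymph node (9.80 to 21.1) and 2.22 in thymus (1.66 to 3.00), and in spleen 1.13 (0.703 to 1.82), which includes no difference.

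**Figure D4:**
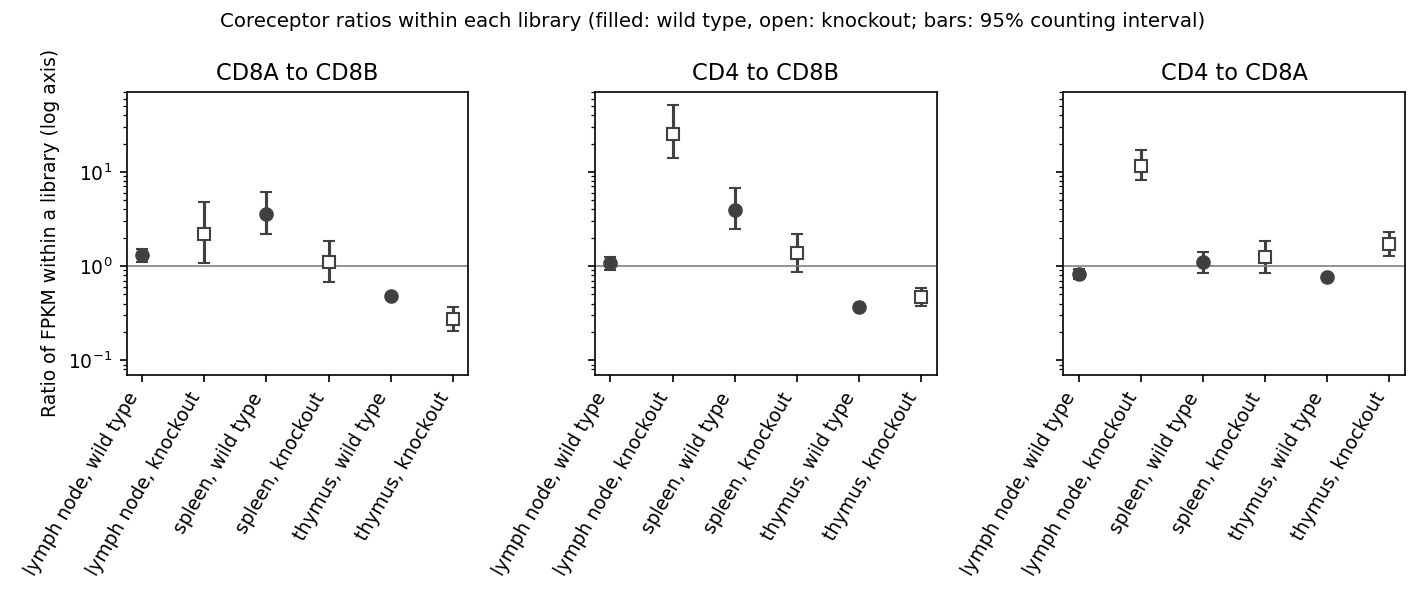
Ratios of FPKM of CD8A to CD8B, CD4 to CD8B and CD4 to CD8A in each of the 6 libraries on a log axis, wild type filled and knockout open, with 95% counting intervals. The CD8A to CD8B ratio is under 1 in both thymus libraries (0.477 and 0.275), and the CD4 to CD8B ratio of the knockout lymph node (25.6) is above those of the other 5 libraries.

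The coreceptors act beside the CD3 chains, which carry the signal of the T-cell receptor, and LCK. In thymus they differed less between the libraries than the coreceptors. Wild-type and knockout levels were 1685 and 918 FPKM for CD3E and 1142 and 956 FPKM for CD3G, neither called. CD3D was lower, with 1037 and 427 FPKM, and so was LCK, with 940 and 428 FPKM. The ratio of CD8A to CD3E was 0.317 (0.303 to 0.331) in wild-type and 0.0124 (0.00964 to 0.0157) in knockout thymus. For CD8B the same ratio was 0.664 (0.638 to 0.690) and 0.0450 (0.0384 to 0.0524), and for CD4 it was 0.245 (0.234 to 0.256) and 0.0212 (0.0179 to 0.0250). Ratios to CD3 chains, CD2 and LCK were added after the data were seen.

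In lymph node CD3E had 897 fragments in wild type and 3 in the knockout, and CD3G had 448 and 8, so CD4 was under these chains in wild type and above them in the knockout. LCK stood at 160 and 23.6 FPKM. The ratio of CD4 to CD3E was 0.223 (0.1995 to 0.2497) in wild-type and 72.3 (24.6 to 352) in knockout lymph node, and its ratio to CD3G was 0.263 (0.231 to 0.300) and 16.0 (8.06 to 37.3). The ratio of CD8A to CD3D was 0.334 (0.291 to 0.383) in wild type and 0.331 (0.198 to 0.555) in the knockout, no difference being detectable at this depth. This held for CD3D only. Against CD3E the ratio of CD8A was higher in the knockout (0.272 and 6.19), as it was against CD3G (0.320 and 1.37). Against CD2 it was lower (0.228 and 0.0629), as it was against LCK (0.496 and 0.243). The CD3D row had 402 and 31 fragments.

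In spleen the CD3 chains differed from each other. CD3D stood at 83.7 and 92.9 FPKM and CD3G at 81.6 and 52.9 FPKM, neither called, while CD3E was 71.4-fold lower (35.9 to 166). LCK stood at 67.0 and 41.4 FPKM. Relative to CD3D, CD8A was at 0.210 (0.162 to 0.272) in wild type and 0.0692 (0.0489 to 0.0962) in the knockout, and CD4 at 0.232 (0.183 to 0.293) and 0.0859 (0.0645 to 0.113). The ratio of CD8B to CD3D was 0.0584 (0.0347 to 0.0936) and 0.0627 (0.0406 to 0.0935), with no difference detectable.

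Of 21 genes of the T-cell receptor complex and its proximal signalling, 11 were listed and measured. Lower calls numbered 10 in lymph node (median log2 ratio -2.71), 3 in spleen (-0.62) and 7 in thymus (-1.19), with no higher call, beside 10.3%, 10% and 10.9% of all measured genes called lower. ZAP70 was not analysed here. The median of all measured genes was -0.00456, -0.0159 and -4.72e-05. CD5, a surface inhibitor of receptor signalling, was lower in all 3 tissues, by 14.9-fold (11.4 to 19.8) in lymph node, 5.31-fold (3.76 to 7.68) in spleen and 5.54-fold (4.95 to 6.22) in thymus. CD28, the costimulatory receptor, had 99 and 1 fragments in wild-type and knockout thymus (101-fold lower, 17.8 to 4046). CD247, the zeta chain, was 3.12-fold lower in thymus (2.99 to 3.25). The exception in lymph node was FYN, an SRC-family kinase related to LCK, at 153 and 145 FPKM, which is no call.

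**Figure D5:**
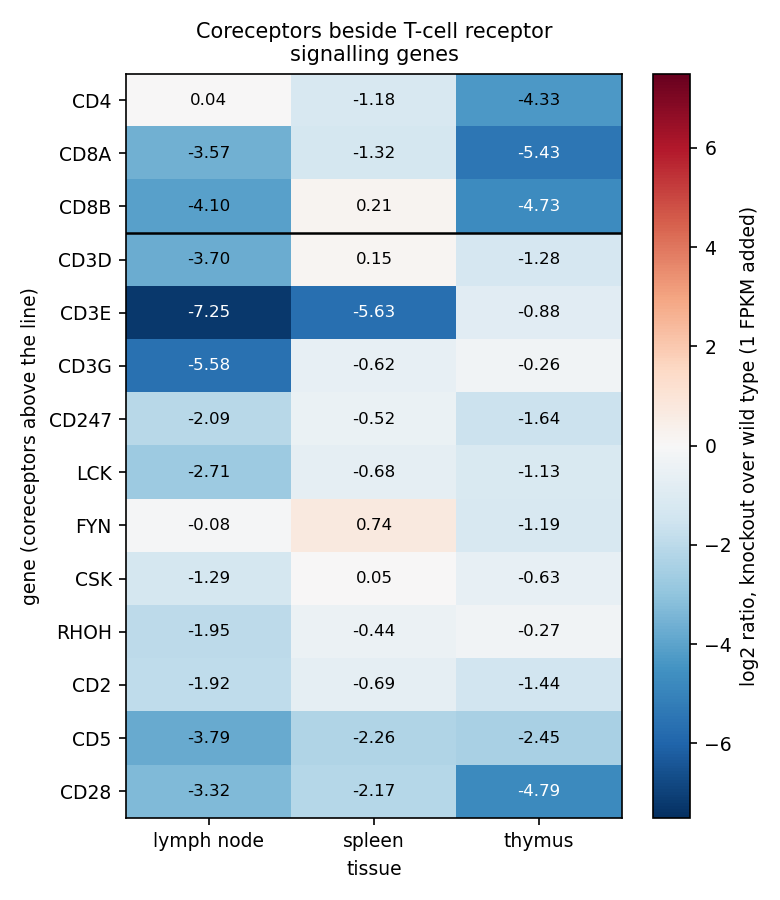
Log2 ratio, knockout divided by wild type (1 FPKM added), for the coreceptors, above the line, and for the 11 measured genes of the T-cell receptor complex and proximal signalling, by tissue. CD4 (0.04) and FYN (-0.08) are near 0 in lymph node, where CD3E reaches -7.25, and in thymus CD8A (-5.43) is the lowest of the 14 genes.

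Among regulators that bear on the coreceptor genes, 6 of 18 were measured in lymph node and spleen and 7 in thymus. Lower calls numbered 2, 3 and 1 in lymph node, spleen and thymus (medians -0.43, -0.40 and -0.00649), and none was higher. The shares of all genes called lower were 10.3%, 10% and 10.9%, and the thymus count is near its share. BCL11B, a T-lineage transcription factor, had 248 and 5 fragments in lymph node and 49 and 4 in spleen, but in thymus it stood at 205 and 235 FPKM. LEF1, a factor of the WNT pathway, was 15.8-fold lower in lymph node (12.1 to 20.9) and 13.5-fold lower in spleen (7.94 to 24.6), and stood at 1359 and 1043 FPKM in thymus. GATA3, which in mice directs thymocytes to the CD4 fate, was 2.16-fold lower in thymus (1.77 to 2.64), where it was the member called, and had 14 and 4 fragments in spleen. ETS1 was listed at 0 in all lymph node and spleen libraries and at 1276 and 717 FPKM in thymus. The values of each tissue were compiled separately, and whether these zeros mean an absent transcript was not tested. The genes for RUNX3, ZBTB7B and TOX, which in mice bear on the choice between CD4 and CD8, were not analysed here.

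Genes of the CD4 helper and regulatory programme were lower also where CD4 was level. Of 7 measured in lymph node 6 were lower, of 6 in spleen all 6, and of 7 in thymus all 7 (medians -2.93, -1.71 and -2.29, or -2.65, -1.71 and -1.25 with genes at 0 placed at a floor of 3 fragments per library), against 10.3%, 10% and 10.9% of all genes. CD40LG, the ligand by which helper T cells activate B cells, had 64 and 6 fragments in lymph node, 16 and 0 in spleen, and 37 and 0 in thymus. With these zeros placed at the floor, CD40LG was 6.23-fold lower in spleen and 12.6-fold lower in thymus. Its counting intervals in both tissues also allow smaller folds than these. ICOS, a costimulator of helper cells, was 7.20-fold lower in spleen (3.89 to 14.6) and 4.99-fold lower in thymus (4.42 to 5.66). CTLA4, an inhibitory receptor of regulatory T cells, was at least 4.60-fold lower in lymph node by the counting interval, with 18 and 0 fragments. GATA3 was the member not called in lymph node, at 10.3 and 7.495 FPKM. Some calls of this list rest on few fragments, such as IL4 in spleen (1 and 0) and IL21 in lymph node (2 and 0).

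Cytotoxic genes belong to a programme of CD8 T cells that is shared with natural killer cells, and part of them were higher in the knockout libraries. Of the cytotoxic list, lymph node had 3 higher of 8 measured genes, spleen 6 of 9 and thymus 4 of 8, with 0, 1 and 1 lower (medians 0.84, 1.26 and 0.9996). These counts stand beside 15.3%, 8.88% and 15.2% of all genes called higher, and 10.3%, 10% and 10.9% called lower. Some higher calls rest on few fragments: in spleen GZMB (0 and 12), IFNG (2 and 12) and FASLG (7 and 20), and in thymus GZMA (1 and 9). The interval of FASLG in spleen (0.994 to 6.85) includes equal levels. NK-lysin, listed as NKL, was 23.3-fold higher in lymph node (13.1 to 45.6), 10.7-fold higher in spleen (8.53 to 13.6), and had 2 and 36 fragments in thymus. The chemokine CCL5 was 2.48-fold higher in lymph node (1.98 to 3.13), and had 71 and 160 fragments in thymus, where it was also called. GZMK, a granzyme, was 5.45-fold lower in spleen on 14 and 3 fragments (1.52 to 29.6). The lower gene in thymus was IFNG, on 2 and 0 fragments. CD8A was called lower in all 3 tissues.

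The ligands of the coreceptors were closer between genotypes. Of 9 measured genes for MHC class II and IL16, a soluble CD4 ligand, 2 were lower in lymph node, 1 in spleen and 0 in thymus, and none was higher (medians -0.73, -0.11 and 0.52). All genes were called lower in 10.3%, 10% and 10.9% of cases, so the spleen count is near the background. IL16 was 3.27-fold lower in lymph node (2.93 to 3.66), and SLA-DOB, an MHC class II chaperone component found in B cells, 7.49-fold lower in lymph node (4.87 to 12.01) and 2.29-fold lower in spleen (1.40 to 3.83). The classical chain SLA-DRA stood at 4459 and 2881 FPKM in lymph node, 3940 and 4214 FPKM in spleen, and 1384 and 2135 FPKM in thymus.

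Among MHC class I and peptide-loading genes no call was made in lymph node or thymus (8 measured in each, medians -0.35 and -0.0639). Of all genes 15.3% were called higher and 10.3% lower in lymph node, and 15.2% and 10.9% in thymus. In spleen 3 of 9 were higher (median 0.72, or 0.24 with genes at 0 placed at the floor), against 8.88% of all genes. SLA-2, a classical class I chain, was 2.16-fold higher (2.03 to 2.30), while the other calls rested on 9 and 30 fragments for B2M and on 0 and 3 for PSMB8. SLA-1 had 6742 and 15138 fragments in spleen, and whether the rows of B2M and PSMB8 capture these genes was not tested.

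The double-positive thymocyte list joins genes chosen for the stage at which both coreceptors are present, though not all are particular to it. In thymus 2 of 9 measured genes were higher and 3 lower (median -0.26), against 15.2% and 10.9% of all genes, so the higher count is close to the background. The lower ones were CCR9, a homing receptor for CCL25, by 51.1-fold (35.9 to 75.5), CD1D, a lipid-presenting molecule, by 13.7-fold (12.5 to 15.1), and CD38 by 3.55-fold (2.55 to 5.02). The higher ones were RAG1, listed as RAG-1, with 3435 and 7134 FPKM, and PTCRA, the partner of the receptor beta chain, at 302 and 611 FPKM. Both also act at the earlier step of beta chain rearrangement and testing, so they do not mark the double-positive stage alone. In lymph node 3 of 8 were higher and 3 lower (median -0.45), RAG-1 with 11 and 91 fragments among the higher. In spleen 4 of 7 were lower (-1.33), RAG-1 with 19 and 1 fragments among them. Over all genes, 15.3% were higher and 10.3% lower in lymph node, and 10% lower in spleen.

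Other cells that carry CD4 or CD8 alpha were followed through their markers. The 7 listed natural killer genes summed to 947 FPKM in wild-type and 1568 FPKM in knockout lymph node, 2840 and 4483 FPKM in spleen, and 308 and 841 FPKM in thymus. Of 6 measured, 2 were higher in lymph node, 2 in spleen and 4 in thymus, where XCL1 was lower (medians 0.58, 0.73 and 1.45). The higher ones in lymph node and spleen were NKL and NKG7, which are counted in the cytotoxic list too. In thymus they were these genes with TYROBP and FCER1G. Higher calls over all genes came to 15.3%, 8.88% and 15.2%, and lower calls in thymus to 10.9%. TYROBP and FCER1G, which myeloid cells also express, make up much of these sums. NCR1, a defining natural killer receptor, was listed at 0 in all 6 libraries, and whether this means an absent transcript was not tested. The part of these cells in the levels of CD8A was not tested.

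Of 12 genes for plasmacytoid dendritic cells 5 were listed, summing to 468 and 339 FPKM in lymph node, 369 and 511 FPKM in spleen, and 112 and 263 FPKM in thymus. In lymph node, where CD4 was level, 2 of the 5 were lower and none higher (median -0.94): CLEC12A, a lectin receptor, with 24 and 2 fragments, and TLR9, a DNA sensor, by 2.13-fold (1.62 to 2.83). In spleen IRF7 was higher by 3.48-fold (2.88 to 4.22) and the RNA sensor TLR7 lower by 2.33-fold (2.06 to 2.65; median 0.49). In thymus 4 of 5 were higher (median 1.29), among them IRF8 by 2.82-fold (1.93 to 4.22). Conventional dendritic cell genes had 1 of 6 lower in lymph node, 2 higher and 1 lower in spleen, and 3 higher and 2 lower in thymus (medians -0.35, 0.25 and 0.90). XCR1, the receptor of cross-presenting dendritic cells, was 5.42-fold higher in thymus (3.68 to 8.22), and CCR7, which T cells also carry, was 33.5-fold lower there (18.0 to 70.5). Both lists stand beside 15.3%, 8.88% and 15.2% of all genes called higher and 10.3%, 10% and 10.9% called lower. The sums of the 6 genes were 622 and 439 FPKM in lymph node, 498 and 655 FPKM in spleen, and 153 and 194 FPKM in thymus.

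Macrophages carry CD4 in humans. Of 12 measured macrophage and monocyte genes 5 were higher and none lower in lymph node (median 0.71), 5 higher and 2 lower in spleen (0.45), and 9 higher and 1 lower in thymus (1.30). Of all genes 15.3%, 8.88% and 15.2% were higher and 10.3%, 10% and 10.9% lower. The 14 listed genes summed to 10510 and 16293 FPKM in lymph node, 29153 and 23742 FPKM in spleen, and 1209 and 3480 FPKM in thymus. CD163 and HMOX1 were listed at 0 in all 6 libraries, and whether these zeros mean absent transcripts was not tested. In lymph node the complement receptor VSIG4 was 6.17-fold higher (5.24 to 7.32) and the scavenger receptor MSR1 3.05-fold higher (2.67 to 3.48). In spleen, where CD4 was lower, MSR1 was 7.06-fold lower (6.09 to 8.21) and the sialic acid receptor SIGLEC-1 16.0-fold lower (12.5 to 20.9). The 5 higher ones there were VSIG4 by 7.71-fold (3.07 to 24.9), the lysozyme gene LYZ by 5.93-fold (5.17 to 6.82), CD14, a receptor for bacterial lipopolysaccharide, by 3.67-fold (3.11 to 4.35), CD5L by 3.63-fold (3.48 to 3.79), and FCGR1A with 0 and 10 fragments. Their part in the level of CD4 was not tested.

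Cells that carry neither coreceptor also differed in these libraries. In the knockout lymph node the 4 listed fat-cell genes summed to 8657 FPKM against 105 FPKM in wild type, the 4 neutrophil genes to 527 against 13.4 FPKM, and HBB stood at 6738 against 376 FPKM. In thymus the fat-cell sums were 452 and 1698 FPKM, and the neutrophil genes to 118 and 2111 FPKM. Fat-cell genes in spleen summed to 22.7 and 13.8 FPKM, and neutrophil genes to 40.4 and 1705 FPKM. FPKM are shares of all fragments, and how far these cells moved the coreceptor values was not tested.

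The genes with a pattern most like each coreceptor were ranked by the root mean square difference of their log2(FPKM + 1) profiles over the 6 libraries, each profile centred on its mean, among 2803 other genes with at least 5 FPKM in 1 library. For CD8A these were CD163L1 (0.48), which RefSeq also names WC1, the costimulatory receptor CD27 (0.61), CD28 (0.74), C4H1orf114 (0.88) and CD5 (0.93). CD163L1 had 41 and 0 fragments in lymph node, 17 and 0 in spleen, and 267 and 0 in thymus. With these zeros placed at the floor of 3 fragments, CD163L1 was 14.3-fold, 6.62-fold and 91.2-fold lower. Its counting intervals in these tissues also allow smaller folds. WC1 molecules mark gamma-delta T cells in ruminants and pigs. The other measured gene of that list, GATA3, is described above and is also counted in the regulator and helper lists. Calls in the list were 1, 2 and 2 lower of 2 in lymph node, spleen and thymus, beside 10.3%, 10% and 10.9% of all genes. Its medians were -1.73, -1.62 and -3.31, or -2.13, -1.99 and -3.80 with zeros at the floor.

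For CD8B the nearest were C4H1orf114 (0.75), the CD1 family genes PCD1E (1.07) and PCD1B (1.08), CD8A (1.15) and CD27 (1.24). PCD1B stood at 7.71 and 12.7 FPKM in spleen, and was at 384 and 44.6 FPKM in thymus and 14.6 and 1.58 FPKM in lymph node. For CD4 the nearest were the matrix protease MMP12 (0.57), the chemokine CCL1 (0.68), the drug transporter ABCB1 (0.69), CCR9 (0.70) and CD1D (0.74). MMP12 was at 22.7 and 0.261 FPKM in thymus and 1.64 and 0.464 FPKM in spleen. CCL1 was at 42.5 and 0 FPKM in thymus and at 0 FPKM in both spleen libraries. At such low levels a profile depends on the added 1 FPKM. ABCB1 was at 33.2 and 41.9 FPKM in lymph node and 214 and 5.09 FPKM in thymus, and CCR9 at 34.5 and 23.1 FPKM in lymph node and 431 and 8.44 FPKM in thymus. CD8A took place 58 and CD8B place 1599 in the order from CD4. In the other direction CD4 took place 17 in the order from CD8A and place 95 in that from CD8B. With a pseudocount of 0.1 FPKM, 3 of the 5 nearest genes stayed for CD4, 2 for CD8A and 2 for CD8B.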

How the data were processed

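RNA came from an RNeasy Mini Kit and libraries from a TruSeq Stranded Total RNA kit, per the labels' protocols. Per the submitters' processing notes, FastQC 0.11.9, Trimmomatic 0.39, STAR 2.7.9a, Cufflinks 2.2.1 and Sscrofa11.1 were used; for their order, settings, annotation and strand option, nothing was found in those sources. The authors deposited FPKM in 1 table per tissue, and estimated counts multiplied by 1 factor per library. The most frequent value above 0 served as that factor: 97.0 to 99.2% of values were whole within 0.02 after division, and were rounded to fragments. That these are multiples of fragments is read from the values. Only some pig genes are listed, so a total over them is less than the library's depth.

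Genes with 1 FPKM in 1 library of a tissue were measured. There was no test and no p-value. Clopper-Pearson and exact conditional intervals (95%) cover counting error. The members and the 13 gene lists were chosen with earlier results of these data known; the result of 1 list is not reported here. Named genes are the members, RAG2, LCK, the CD3 chains and IL16, up to 3 called members with 10 fragments per list and tissue, and 5 nearest genes per member; other list genes, and RAG-1, PTCRA, FYN, SLA-DRA, NCR1, ETS1, CD163, HMOX1 and marker genes, were chosen after their values were seen. Some genes named by this rule are given only in counts. Alternatives were total, TMM (edgeR 4.0.16) and DESeq2 1.42.0 scaling, pseudocounts of 0.1 and 5, centring, a threshold of 2, the counting interval, no minimum and a minimum of 5 FPKM. Calculations were tested on simulated data, with scipy 1.17.1, pandas 2.3.3, numpy 2.4.6 and, for plots, matplotlib 3.10.9 in Python 3.11.15.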

Additional observations from a re-analysis of the deposited data

Results flagged for a closer look

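CD4 and CD8B had log2 ratios of different sign in different tissues, with no positive value called. For CD4 the log2 ratio (knockout over wild type) was 0.0414 in lymph node, -1.18 in spleen and -4.33 in thymus. That of CD8B was 0.212 in spleen, -4.10 in lymph node and -4.73 in thymus. The positive values have counting intervals that include equal levels, and with 1 library per tissue and genotype the difference between tissues was not tested.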

How the results depend on the processing

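No paired analysis was possible because each tissue and genotype has 1 library. The 9 log2 ratios of the coreceptors were recomputed under 8 alternatives, 72 in all, and 68 kept their side of the threshold. The 4 exceptions are in spleen. With a pseudocount of 5 FPKM, CD4 was at -0.91 and CD8A at -0.98. Against a threshold of 2 their values of -1.18 and -1.32 are no calls. No called value changed sign. The uncalled ratios, CD4 in lymph node and CD8B in spleen, could not become calls under the threshold of 2 or the counting interval. Ratios of fragments, not divided by length, moved 10 of the 18 ratios within libraries beyond their intervals. CD8A to CD8B was then 1.89 in wild-type lymph node, 0.696 in wild-type thymus and 0.401 in knockout thymus. CD4 to CD8B was 1.98 in wild-type lymph node, 7.35 and 2.54 in wild-type and knockout spleen, and 0.685 and 0.876 in wild-type and knockout thymus. CD4 to CD8A was 1.05 in wild-type lymph node and 0.983 in wild-type thymus. With 1 FPKM added, all 18 stayed within their intervals. A length taken from the reference annotation was not run, since only genomic spans were at hand. Of all genes, 446 were higher and 299 lower in lymph node, 253 and 286 in spleen, and 441 and 317 in thymus. With a threshold of 2 these were 163 and 112, 79 and 76, and 110 and 105; with a pseudocount of 5 they were 166 and 160 in spleen and 272 and 183 in thymus. Counts scaled to their total moved the median log2 ratio of thymus to 0.116. Of 780 list counts 67 moved by over 1.5 times, 33 of them with the threshold of 2. Of the 5 nearest genes, all 5 of each coreceptor stayed with a minimum of 1 FPKM, and 3, 2 and 2 with a pseudocount of 0.1 (CD4, CD8A and CD8B). Low fragment numbers limit CD8B in spleen (20 and 28) and in the knockout lymph node (11).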
